A study of Mus musculus with 8 samples.

Results

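The genes described here are 10 transcription factor genes of the neural crest and of mesenchyme: Tfap2a, Tfap2b, Twist1, Twist2, Snai1, Snai2, Msx1, Msx2, Prrx1 and Hand2. Their probes were found by the RefSeq gene symbol matched through the platform's gene identifier, or by the platform's own symbol where none matched. Of the 10 genes, 9 had a probe, out of 16593 gene symbols on the array, and these 9 genes were read by 18 of 25697 probes. Snai2 was not analysed here. The members were chosen by their measured log2 differences between rescued and knockout arrays, so these differences are given as a description and without a test.

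Smooth muscle cells of the carotid artery wall, in primary culture from male C57bl6 mice, were compared, and both groups carried the knockout of PMCA4, a plasma membrane calcium pump encoded by Atp2b4. The 4 knockout arrays came from these cells as they were. The 4 rescued arrays came from knockout cells that had been electroporated with PMCA4a cDNA. In both groups the cells were synchronised by serum, then received serum plus PDGF-BB, a growth factor for smooth muscle, and RNA was taken in late G1/S. The promoter that drove the cDNA, and whether replicates were separate cultures or animals, are not given in the sources used here, so the p-values here cover the spread among 8 arrays, part or all of which may be technical. Electroporation and PMCA4a cannot be told apart in these groups.

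Neural crest cells leave the dorsal neural tube of the embryo, migrate, and form much of the skull, the peripheral nervous system and the pigment cells. They also form the smooth muscle of the carotid arteries. AP-2 proteins, encoded by the Tfap2 genes, act early in the specification of the crest. SNAIL and TWIST factors repress epithelial genes and take part in the change of epithelium to migrating mesenchyme, MSX factors act downstream of bone morphogenetic proteins (BMPs), HAND2 acts downstream of endothelin in the pharyngeal arches, and PRRX1 marks limb and facial mesenchyme. AP-2 proteins bind a palindrome written GCCNNNGGC, and the TWIST, HAND and SNAIL families bind E-boxes written CANNTG. PRRX homeodomains bind sites with the core TAATTA.

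The RefSeq promoter table of assembly GRCm38.p6 held 10 windows for 9 of the 10 genes, with 2 for Tfap2a. The 250 bases before the start are shown for the 5 fitted members with the largest log2 differences in size, a choice made for display. They lie at chr13:40734921-40735170 on the minus strand for Tfap2a (the more upstream of its 2 starts), chr1:19211804-19212053 on the plus strand for Tfap2b, chr2:167537945-167538194 on the plus strand for Snai1, chr5:37824586-37824835 on the minus strand for Msx1 and chr8:57320733-57320982 on the plus strand for Hand2. Each is written 5′ to 3′ on the strand of its gene, and capitals mark the matches to the 3 motifs above, searched on both strands.
Tfap2a: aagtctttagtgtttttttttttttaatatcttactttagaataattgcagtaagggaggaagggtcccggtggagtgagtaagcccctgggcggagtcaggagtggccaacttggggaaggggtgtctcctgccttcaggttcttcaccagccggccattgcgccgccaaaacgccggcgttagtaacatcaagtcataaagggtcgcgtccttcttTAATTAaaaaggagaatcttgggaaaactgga
Tfap2b: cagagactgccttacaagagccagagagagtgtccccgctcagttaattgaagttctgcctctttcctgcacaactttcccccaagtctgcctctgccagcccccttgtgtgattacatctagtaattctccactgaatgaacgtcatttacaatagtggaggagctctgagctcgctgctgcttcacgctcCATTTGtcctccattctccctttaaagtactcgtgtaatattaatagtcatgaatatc
Snai1: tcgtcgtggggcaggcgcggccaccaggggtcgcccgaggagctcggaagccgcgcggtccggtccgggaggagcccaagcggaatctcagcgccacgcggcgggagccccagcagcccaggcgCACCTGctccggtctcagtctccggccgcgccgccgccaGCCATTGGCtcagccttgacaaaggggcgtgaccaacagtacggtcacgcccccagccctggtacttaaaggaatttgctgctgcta
Msx1: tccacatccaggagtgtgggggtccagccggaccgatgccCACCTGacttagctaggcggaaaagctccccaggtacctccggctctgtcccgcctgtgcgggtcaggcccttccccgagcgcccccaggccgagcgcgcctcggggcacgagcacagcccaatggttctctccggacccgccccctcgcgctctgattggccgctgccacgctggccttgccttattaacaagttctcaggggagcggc
Hand2: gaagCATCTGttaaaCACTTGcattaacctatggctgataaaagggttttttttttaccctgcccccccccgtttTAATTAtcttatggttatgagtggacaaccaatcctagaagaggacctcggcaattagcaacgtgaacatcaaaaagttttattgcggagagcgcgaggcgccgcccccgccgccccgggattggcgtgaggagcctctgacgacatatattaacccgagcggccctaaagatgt

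These letters differed between the 5 genes. The Snai1 window held an AP-2 palindrome, from 87 to 79 bases before the start, as did that of Twist2, from 80 to 72 bases before it; 13.7% of all 32851 windows of this length hold one. An E-box was present in the Tfap2b window from 58 to 53 bases before the start and once each in those of Snai1, Msx1 and Msx2. The Hand2 window held E-boxes at 2 places, and 66.2% of all windows hold at least 1. The homeobox core was found in the Tfap2a window shown (32 to 27 bases before the start) and in those of Hand2, Prrx1 and Msx2, against 4.84% of all windows. No pair of matches overlapped, and other homeodomain sites, such as TAATTG, were not searched. A match is a description of the letters and was not set against binding data.

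Transcript levels were read as the signal of a bead probe, with a detection p that compares the signal with negative-control probes. A probe is called detected here at a detection p under 0.05. Levels are log2 intensities after background correction and quantile normalization, differences are rescued minus knockout on that scale, and the SD is over 4 arrays. Across arrays, 12223 to 12873 probes were detected, more on rescued than on knockout arrays (12738 ± 99.8 against 12348 ± 98.4, SD, n = 4 each, exact permutation p = 0.0286, two-sided, the smallest possible with 4 against 4). The median signal of the arrays overlapped between groups (exact permutation p = 0.657, n = 4 each). The targeted gene did not check the labels: its probe ILMN_1217742 gave 5.54 ± 0.22 with and 5.51 ± 0.24 without the cDNA (n = 4 each; other probes undetected), near the detection limit, and whether its probes lie in the deleted or the electroporated part was not analysed here. In cultures read as a whole, fewer cells of a type and less RNA per cell cannot be told apart.

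Of the 18 probes, 15 of 8 genes passed the filter, which asked for detection on at least 4 of the 8 arrays. Msx2 was not detected on any array, with detection p from 0.112 to 0.603, so it has no level here. Of the 15 probes, 4 passed through the knockout arrays alone and could only differ downward: 3 of Tfap2b and 1 of Tfap2a. In the fit over all probes, 4906 of 12658 (38.8%) passed an adjusted p of 0.05, and 13 of these 15 did. At gene level the share was 39.9% over 8633 genes, and 8 of the 8 fitted members passed, 4 higher in rescued cells (21.0% of all genes) and 4 lower (18.9%). The groups did not overlap in any of the 8 genes at the probe with the highest mean, where 40.9% of all genes showed no overlap. Since the list was made from this contrast, nothing is read from these counts. The median size of the log2 difference was 0.86 over the 8 genes and 0.22 over all genes. Nothing is read from this gap either, because the members were chosen by these differences.

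**Figure D1:**
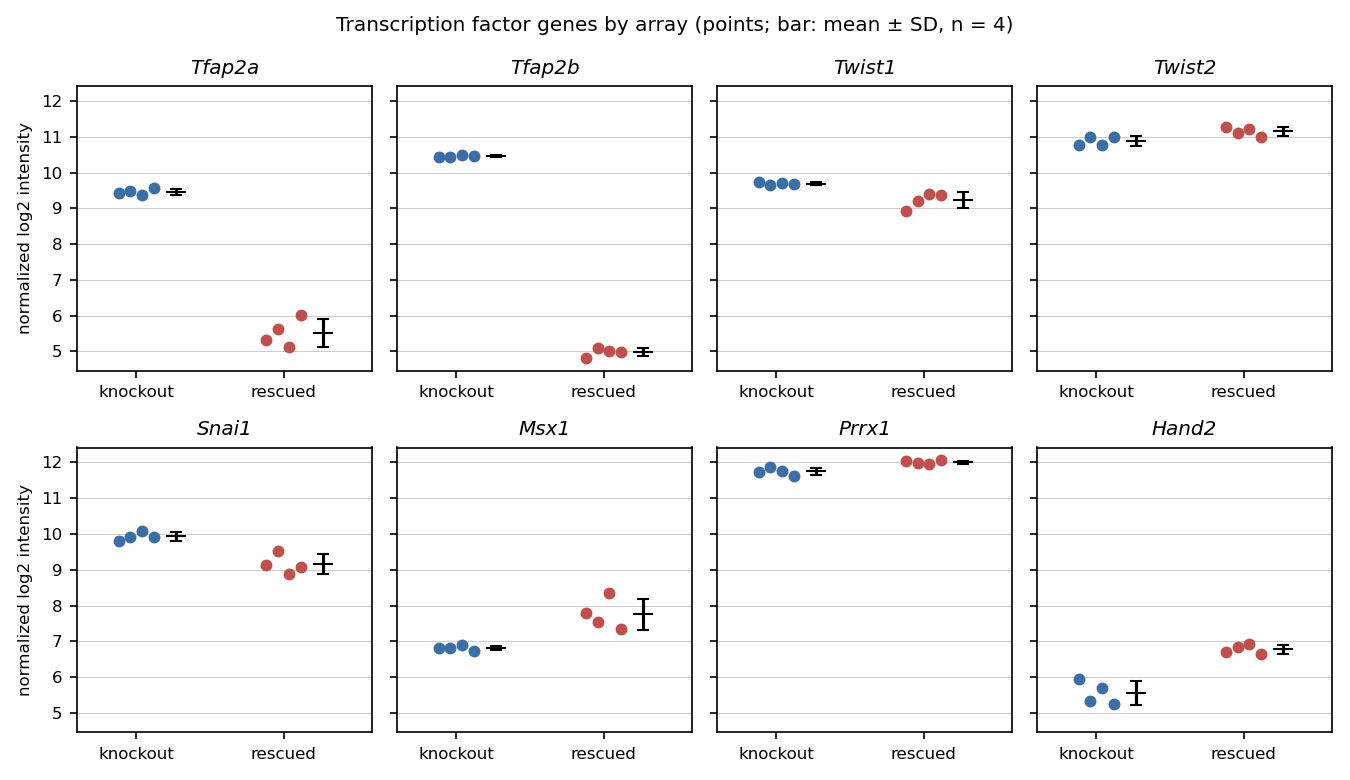
Normalized log2 intensity (vertical axis) of the 8 fitted genes on the 4 knockout and 4 rescued arrays, each at its brightest probe; points are arrays and bars are the mean with its SD. Tfap2a and Tfap2b stand above 9 on every knockout array and at or below 6.02 on every rescued array, whereas Prrx1 and Twist2 differ by 0.26 and 0.27.

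Both AP-2 genes were high in knockout cells and close to or under the detection limit in rescued cells. Tfap2b, which encodes AP-2 beta and lies on chromosome 1, stood at 10.44, 10.42, 10.48 and 10.46 on knockout arrays 1 to 4 and at 4.81, 5.08, 5.0 and 4.99 on rescued arrays 1 to 4 at its brightest probe (ILMN_1223731). The 4 knockout arrays lay within a narrow band and all rescued arrays lay more than 5 log2 units under it. The difference was -5.48 with an SE of 0.07. On rescued arrays the probe was not detected, with detection p from 0.0827 to 0.218, so the fold is a bound, at least 38.0-fold lower. In deposited signal, before any normalization, the knockout arrays gave 1413, 1549, 1526 and 1274 units and the rescued arrays 103, 112, 112 and 110.

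The other Tfap2b probes did not all read the same. ILMN_2760450 and ILMN_3151298 went from 9.70 ± 0.08 and 9.48 ± 0.05 in knockout cells to 4.80 ± 0.14 and 4.72 ± 0.16 in rescued cells (SD, n = 4 each), at least 22.7-fold and 19.5-fold lower. The 4th, ILMN_3072487, was not detected on any array, with signals of 111 to 115 on knockout and 82.2 to 93.5 on rescued arrays. It is annotated to the same RefSeq transcript as ILMN_3151298, so of 2 probes of 1 transcript, 1 was bright in knockout cells and 1 was dim.

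Tfap2a, which encodes AP-2 alpha and lies on chromosome 13, stood at 9.44, 9.48, 9.36 and 9.57 on knockout arrays 1 to 4. On rescued arrays 1 to 4 it stood at 5.32, 5.62, 5.13 and 6.02 at the same probe (ILMN_2764846), a difference of -3.94 with an SE of 0.17. The rescued arrays were far under the knockout arrays but not uniform: 3 of them detected the probe, with detection p of 0.0401, 0.0201 and 0.00125, and rescued replicate 3 did not (0.0677). A second probe, ILMN_2913031, was detected on all knockout arrays (7.91 ± 0.06) and on no rescued array (4.86 ± 0.16), at least 6.51-fold lower. The last, ILMN_2726449, was detected on 1 knockout array only and was not fitted.

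Without background correction the AP-2 differences were smaller and kept their direction: -3.58 for Tfap2b and -2.49 for Tfap2a. The relatives Tfap2c, Tfap2d and Tfap2e were not detected on any array by any of their probes, so of 5 AP-2 genes on the array, Tfap2a and Tfap2b were the 2 with detected transcripts. Markers of keratinocytes and epithelium, where AP-2 genes are also active, were mostly dark: of 9 on the array, 7 were not detected on any array, among them Krt5, Krt14 and Trp63. Krt15 was detected on 2 knockout arrays and no rescued array. Cdh1 was detected on 2 knockout and 4 rescued arrays and did not pass the threshold (difference 0.25, adjusted p = 0.141).

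**Figure D2:**
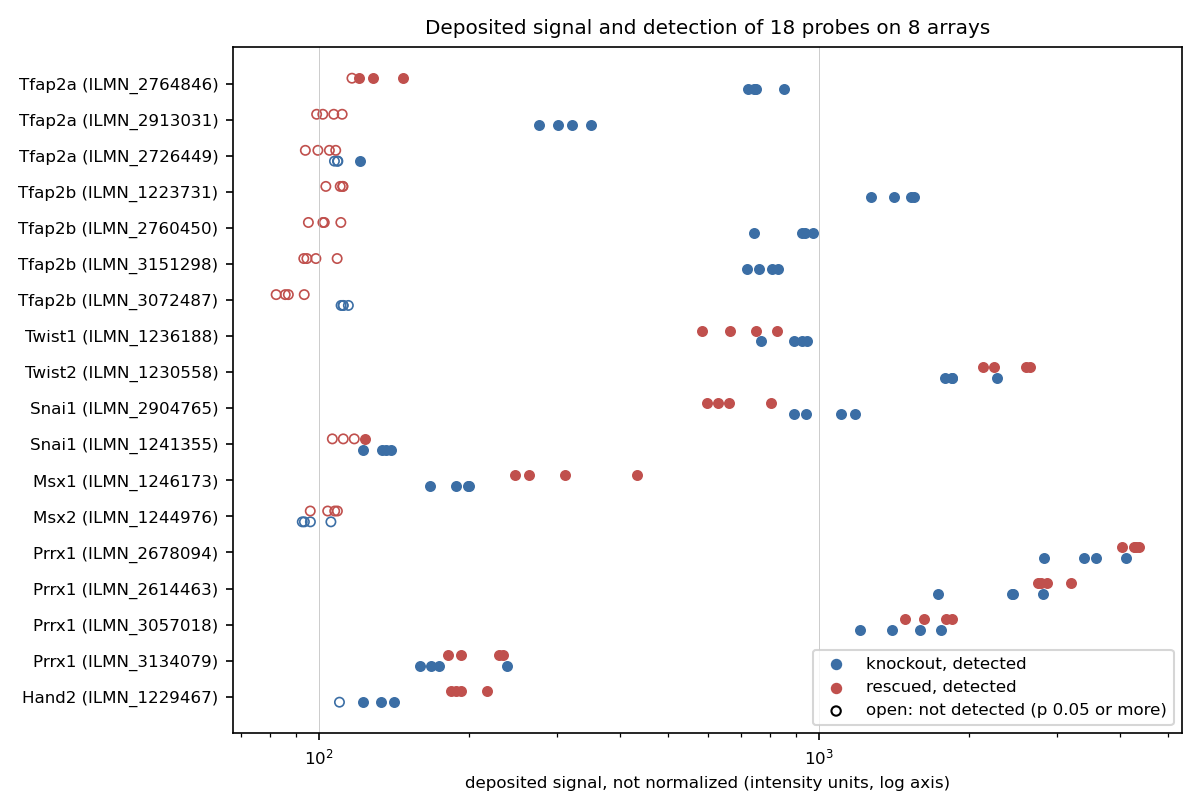
Deposited signal (horizontal log axis, intensity units, not normalized) of all 18 probes on each array, knockout in blue and rescued in red, with open circles where the detection p was 0.05 or more. The 3 bright Tfap2b probes are detected on knockout arrays alone, and the signals of the groups overlap for Twist1, Twist2 and every Prrx1 probe.

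Snai1, which encodes the zinc-finger repressor SNAIL, was lower in rescued cells at both of its probes. At ILMN_2904765 it stood at 9.81, 9.91, 10.10 and 9.91 on knockout arrays 1 to 4 and at 9.13, 9.54, 8.89 and 9.09 on rescued arrays 1 to 4. The highest rescued array lay under the lowest knockout array, and the difference was -0.77 with an SE of 0.13, or 1.71-fold lower. The dimmer probe ILMN_1241355 differed by -0.62 with an SE of 0.12, having been detected on 4 knockout arrays and 1 rescued array, and by -0.21 without background correction. Snai3, another member of the family, was not detected on any array.

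The TWIST genes, which encode a pair of closely related basic helix-loop-helix repressors, lay on opposite sides of 0, and both were strongly detected on all 8 arrays. Twist1 stood at 9.74, 9.65, 9.70 and 9.67 on knockout arrays 1 to 4 and at 8.92, 9.21, 9.41 and 9.38 on rescued arrays 1 to 4, a difference of -0.46 with an SE of 0.11. The knockout arrays were nearly level, and the rescued arrays were lower and more spread. Twist1 lies on chromosome 12, whose 391 kept probes had a median difference of -0.31, the lowest of any chromosome. With each chromosome centred, the Twist1 difference was -0.15 and no longer passed the threshold. In deposited signal the groups overlapped, from 585 to 826 units on rescued and from 766 to 948 on knockout arrays.

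Twist2 stood at 10.77, 10.99, 10.76 and 11.003 on knockout arrays 1 to 4 and at 11.26, 11.11, 11.21 and 11.0055 on rescued arrays 1 to 4. The lowest rescued and the highest knockout array nearly touched, and the difference was 0.27 with an SE of 0.09, or 1.20-fold higher. This was the member closest to the threshold. It was lost in 12 of 23 alternatives, among them centring of each chromosome (0.17, on chromosome 1, with a median of 0.08) and 5 that left out 1 array: rescued replicate 1, 2 or 3 (0.23, 0.28 and 0.24) or knockout replicate 1 or 3 (0.23 each). The difference between the TWIST genes was not tested.

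Msx1, which encodes a homeodomain repressor induced by BMPs, was higher in rescued cells and varied among them. It stood at 6.81, 6.80, 6.89 and 6.74 on knockout arrays 1 to 4 and at 7.79, 7.53, 8.34 and 7.35 on rescued arrays 1 to 4. Every rescued array was above every knockout array, with rescued replicate 3 the highest. The difference was 0.94 with an SE of 0.18, or 1.92-fold. It was 0.59 without background correction. Msx3, like Msx2, was not detected on any array.

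Hand2, which encodes a basic helix-loop-helix factor of the pharyngeal arches and heart, was a dim transcript that was higher in rescued cells. It stood at 5.95, 5.32, 5.69 and 5.26 on knockout arrays 1 to 4 and at 6.70, 6.83, 6.93 and 6.65 on rescued arrays 1 to 4. The groups did not overlap, and the rescued arrays were closer to each other than the knockout arrays were. The difference was 1.23 with an SE of 0.15, or 2.34-fold, and 0.52 without background correction. Deposited signals were 184 to 217 units on rescued and 110 to 141 on knockout arrays. Detection p was at most 0.00125 on rescued arrays and 0.00501, 0.0476, 0.0113 and 0.0564 on knockout arrays 1 to 4, so the last of these did not detect it. Hand1, its closest relative, was not detected on any array.

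Prrx1 was bright in both groups. At its brightest probe, ILMN_2678094, it stood at 11.75, 11.87, 11.76 and 11.63 on knockout arrays 1 to 4 and at 12.03, 11.98, 11.96 and 12.06 on rescued arrays 1 to 4, a difference of 0.26 with an SE of 0.07, or 1.19-fold. The platform assigns 2 probes to each of 2 RefSeq transcripts of this gene. The pair that holds this probe differed by 0.26 and 0.27, and both passed the threshold. The other pair differed by 0.12 and 0.23, with SEs of 0.08 and 0.24, and neither passed. Whether the transcripts differ from each other was not tested. Centring each chromosome ended the call at the brightest probe (0.16), and the deposited signals of the groups overlapped at all 4 probes.

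**Figure D3:**
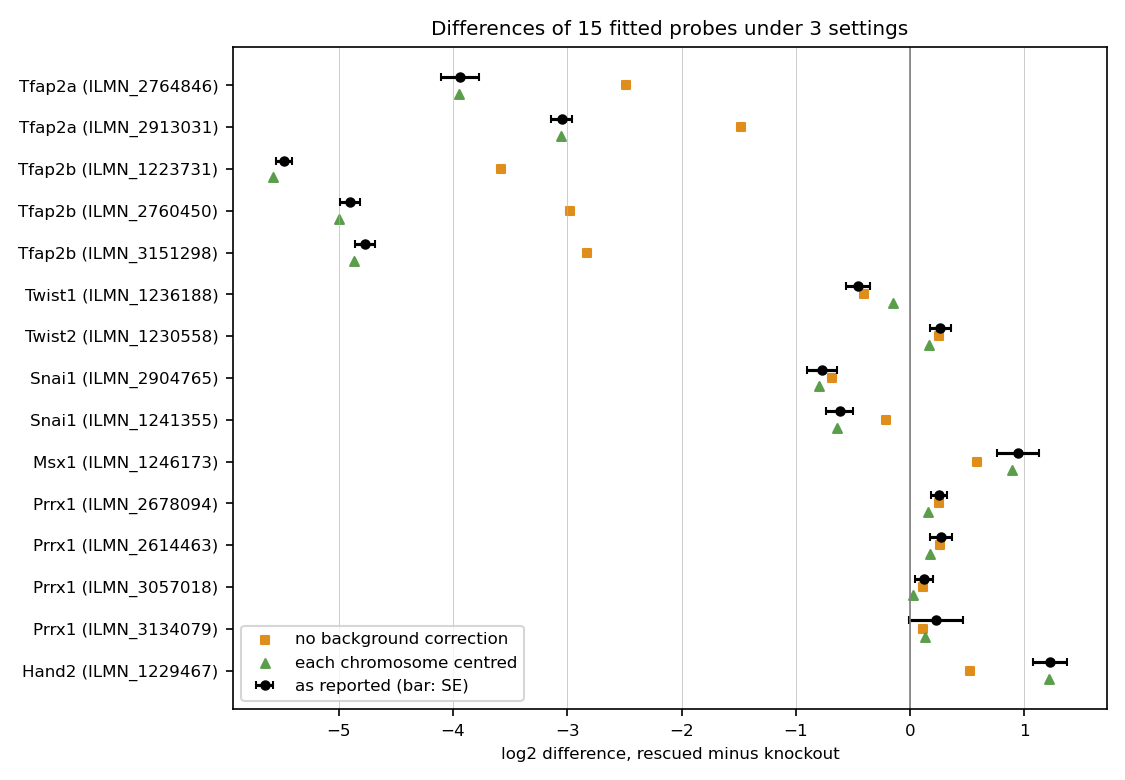
Log2 difference, rescued minus knockout (horizontal axis), of the 15 fitted probes as reported (circles, bar: SE), without background correction (squares) and with each chromosome centred (triangles). Background correction changes the size at probes near background in at least 1 group, such as those of Tfap2a, Tfap2b and Hand2. Centring moves Twist1 from -0.46 to -0.15.

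The 5 genes Tfap2a, Tfap2b, Snai1, Msx1 and Hand2 were the ones whose deposited signals did not overlap between groups at the brightest probe. The share of all genes without overlap in deposited signal was not computed, so nothing is read from this count. Over 23 alternatives the threshold was missed in 2 for Twist1, in 5 for Prrx1 and in 12 for Twist2. Because the members were chosen on this contrast, staying past the threshold is no support for the others.

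Genes around these factors were taken from 9 lists of crest, mesenchyme and pathway genes from which the members were left out. Of 225 genes, 202 were on the array, 107 were fitted, 28 rose and 29 fell in rescued cells. This is 53.3% of those fitted, against 39.9% of all genes, and their median log2 difference was -0.01, as against 0.01 over all genes. The lists were chosen with earlier results of these data known and were not tested as sets, so nothing is read from this share.

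**Figure D4:**
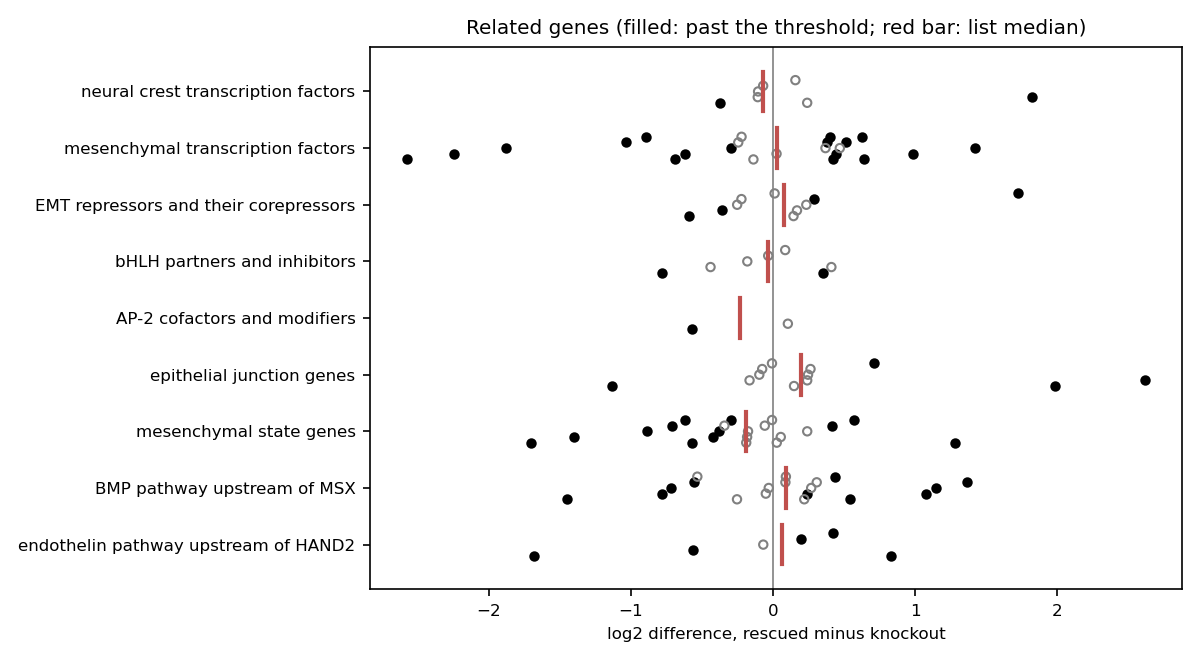
Log2 difference, rescued minus knockout (horizontal axis), of 107 fitted genes in 9 lists; filled points passed an adjusted p of 0.05, open points did not, and red bars are list medians. Every list median lies between -0.23 and 0.19, with single genes from -2.58 to 2.62.

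Other neural crest factors were mostly undetected. Of 28 on the array, 19 were not detected on any array and 7 were fitted, of which 1 rose and 1 fell. The 19 include the relatives Tfap2c, Tfap2d, Tfap2e, Hand1 and Msx3 described above. Over the whole array, 8633 of 16593 genes were fitted. Sox5, a SOX factor of crest and cartilage, rose from 8.53 ± 0.06 to 10.35 ± 0.13 (SD, n = 4 each; limma, adjusted p = 4.74e-07). Ets1, an ETS factor of the cranial crest, fell by 0.38 (adjusted p = 0.00313), and by 0.31 with its probes averaged, which ended the call (adjusted p = 0.0601). Sox9, also a SOX factor of crest and cartilage, was detected on all 8 arrays and differed by 0.16 without passing (adjusted p = 0.271).

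Mesenchymal factors changed in both directions. Of 49 on the array, 20 were not detected on any array and 23 were fitted, of which 9 rose and 8 fell. Foxf1, a forkhead factor of visceral mesenchyme, fell from 7.64 ± 0.07 to 5.06 ± 0.28 (adjusted p = 8.77e-07, SD, n = 4 each) and was detected on 1 rescued array. Osr2, a zinc-finger factor of palate and limb mesenchyme, fell by 2.24 (adjusted p = 2.09e-06). Tbx20, a T-box factor of the heart, was not detected on any rescued array and was at least 2.28-fold lower (adjusted p = 9.55e-07). The Tbx20 probe passed the filter through the knockout arrays alone and could only differ downward. Scx, among the 9 that rose, passed it through the rescued arrays alone and could only differ upward. Irx5, an Iroquois homeobox gene, rose by 1.42 (adjusted p = 9.39e-07). Without background correction Foxf1, Osr2, Tbx20 and Irx5 differed by -1.22, -1.45, -0.79 and 0.83, all still past the threshold.

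Among 10 fitted repressors of epithelial genes and their corepressors, 2 rose and 2 fell. Foxq1, a forkhead gene, rose by 1.73 (adjusted p = 1.28e-05), or by 1.03 without background correction. The histone deacetylase gene Hdac1 and the demethylase gene Kdm1a, which act with SNAIL, differed by -0.59 and -0.36 and both fell (adjusted p = 0.000363 and 0.00476), and centring each chromosome ended the call of Kdm1a (-0.17, adjusted p = 0.137). Zeb1, another repressor of epithelial genes, rose by 0.29 (adjusted p = 0.0447). That call ended in 13 of 23 alternatives, among them each of 6 arrays left out in turn: rescued replicates 3 and 4 (0.20 and 0.28) and knockout replicates 1 to 4 (0.27, 0.31, 0.30 and 0.28).

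Of the 7 fitted partners and inhibitors of basic helix-loop-helix factors, 1 rose and 1 fell. Id3, which encodes an inhibitor that binds the E proteins, fell by 0.78 (adjusted p = 0.00337). Its relative Id2 rose by 0.35 (adjusted p = 0.0413) with overlapping groups, a call that ended in 11 of 23 alternatives, 6 of which left out 1 array: rescued replicates 1, 2 and 4 (0.33, 0.32 and 0.32) or knockout replicates 1, 2 and 4 (0.26, 0.36 and 0.39). With its probes averaged Id2 differed by 0.21, not past the threshold (adjusted p = 0.0507), and with each chromosome centred by 0.66, past it (adjusted p = 0.00427). Of 2 fitted cofactors and modifiers of AP-2, Kctd15, whose product inhibits AP-2 in zebrafish, fell by 0.57 (adjusted p = 0.0108), or by 0.26 without background correction.

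Epithelial junction genes, a class that SNAIL and TWIST repress, were mostly dim. Of 32 on the array, 13 were not detected on any array and 12 were fitted, of which 3 rose and 1 fell. The keratin gene Krt19, detected on 4 rescued arrays and 1 knockout array, rose by 2.62 (adjusted p = 9.70e-05) and the plakophilin genes Pkp2 and Pkp1 by 1.98 and 0.71 (adjusted p = 0.000232 and 0.0045). F11r, which encodes a tight junction adhesion molecule, fell by 1.13 (adjusted p = 0.000907). Without background correction these differed by 1.26, 1.13, 0.26 and -0.59, all still past the threshold.

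Of 21 fitted genes of the mesenchymal state, 3 rose and 9 fell. The ligand gene Wnt5a fell by 1.40 (adjusted p = 9.62e-06), the membrane metalloproteinase gene Mmp14 fell by 0.71 (adjusted p = 0.000142) and the integrin gene Itgb1 fell by 0.57 (adjusted p = 0.000997). Tgfbi, a matrix gene induced by TGF-beta, rose by 1.28 (adjusted p = 7.68e-05). Without background correction Wnt5a differed by -0.72.

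In the BMP pathway, which lies upstream of MSX genes, 6 of 19 fitted genes rose and 4 fell. The activin and BMP antagonist gene Fst fell from 11.53 ± 0.02 to 10.08 ± 0.14 (adjusted p = 1.83e-06, SD, n = 4 each) and the follistatin-like gene Fstl1 fell by 0.72 (adjusted p = 6.43e-05). Bmper, which encodes a secreted BMP-binding protein, rose by 1.08 (adjusted p = 2.79e-05) and the receptor gene Acvr2b by 1.15 (adjusted p = 3.22e-05), or 0.53 without background correction. Antagonist genes went in both directions, as Grem1, another of them, rose by 1.37 (limma, adjusted p = 8.03e-05).

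In the endothelin pathway, which lies upstream of HAND2, 9 listed genes were on the array. Of these, 3 stayed undetected throughout and 6 were fitted, of which 3 rose and 2 fell. No endothelin receptor gene was among the 6 fitted. Edn1, which encodes the ligand endothelin 1, fell from 9.43 ± 0.07 to 7.75 ± 0.32 (adjusted p = 2.45e-05, SD, n = 4 each). The endothelin-converting enzyme genes Ece1 and Ece2 rose by 0.83 and 0.42 (adjusted p = 4.49e-05 and 0.0121). Gnaq, which encodes a G-protein subunit that couples endothelin receptors, fell by 0.57 (adjusted p = 0.000714).

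The labelled cell type was checked against smooth muscle markers. Of 12, 7 were fitted, 2 rose and 2 fell. The mean level of the 7 ran from 8.42 to 8.86 on rescued and from 8.90 to 9.11 on knockout arrays. Their median log2 difference was -0.03, and Actg2 weighs heavily in the mean. Acta2 was near the top of the scale in both groups (15.83 ± 0.07 rescued and 15.87 ± 0.06 knockout, n = 4 each), and Des and Cald1 were detected on all arrays and differed by -0.04 and 0.13. Actg2 fell by 2.85, Tagln fell by 1.43, and Smtn and Myocd rose by 0.43 and 1.70 (adjusted p = 3.38e-06, 0.000162, 0.00412 and 0.000615). The markers of mature smooth muscle Cnn1, Lmod1 and Synpo2 were not detected on any array, and Myh11 and Mylk on 1 rescued array each. Without background correction Actg2 and Myocd differed by -1.74 and 0.70. Myocd was detected on 1 knockout array, and on no array by its other 2 probes.

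Markers of glia and melanocytes, which also arise from the crest, were near absent: of 8 on the array none was fitted, 6 were not detected on any array, and Mbp and Pmel were each detected on 2 rescued arrays at most, Pmel also on 1 knockout array. All 6 markers of sympathetic neurons on the array were undetected throughout. The mean levels of several other lists also stood apart between the groups. These means were not tested, and 39.9% of all genes passed the threshold. The part of these lists and of the smooth muscle markers in the members' differences was not tested. The mean level of 9 fitted adventitial fibroblast markers ran from 8.27 to 9.36 on rescued and from 9.53 to 9.67 on knockout arrays; 5 fell, led by Pdgfra (-2.23, adjusted p = 1.45e-05) and Mfap5 (-2.62, adjusted p = 7.40e-05), and 1 rose.

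For 6 fitted cartilage and bone markers the mean ran from 7.19 to 7.81 on rescued and from 5.91 to 6.05 on knockout arrays. Of these, 3 rose and 3 did not pass the threshold. Col2a1 was undetected in knockout cells and at least 41.4-fold higher (adjusted p = 5.20e-05). Its probe passed the filter through the rescued arrays alone and could only differ upward. Col2a1 weighs heavily in the mean, with a difference of 5.59 and an SD of 1.31 among rescued arrays. Bglap rose by 1.57 (adjusted p = 8.94e-05), or by 0.67 without background correction, and was detected on 2 knockout arrays. Acan, Comp, Matn1, Ibsp and Sp7 were undetected. For 5 fitted endothelial markers the mean ran from 7.20 to 7.40 on rescued and from 6.50 to 6.73 on knockout arrays. Of these, 4 rose, led by Vwf (at least 1.53-fold, adjusted p = 0.00162) and Plvap (0.76, adjusted p = 0.00934). The Vwf probe and that of Nos3, another of the 4, also passed the filter through the rescued arrays alone and could only differ upward. Pecam1, Cdh5, Tie1, Emcn and Erg were undetected. For 3 fitted macrophage and leukocyte markers the mean ran from 6.99 to 7.11 on rescued and from 6.22 to 6.68 on knockout arrays. Lyz2 and Cd14 rose (2.14 and 0.90, adjusted p = 2.42e-06 and 7.65e-05), and Cd53 fell (-1.24, limma, adjusted p = 0.00039). Lyz2 differed by 0.96 without background correction and was detected on 1 knockout array. Ptprc, Adgre1, Itgam, Fcgr1, C1qa, Tyrobp and Laptm5 were undetected.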

How the data were processed

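Biotin-labelled cRNA of 8 samples, 4 per group by their titles, was hybridised to a 1-colour Illumina bead array, per the labels. The authors deposited a table of linear intensity values per probe, not normalized per the file headers, with a detection p-value beside each intensity. A second deposited table holds log2 values (processing not given in the sources used here); it differed by at most 0.0266 from the log2 values computed here, with column medians of 5.17 to 5.18, so its scale and direction are those used and its probes were not centred.

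Background correction, from the detection p-values, and quantile normalization used neqc (limma 3.58.1, R 4.3.3, offset 16). The 12658 probes with detection p under 0.05 on at least 4 arrays were kept. Rescued minus knockout was fitted with lmFit and eBayes, with Benjamini-Hochberg adjustment over all kept probes and a threshold of 0.05. The procedure was tested on simulated data. Each gene was read at the kept probe of highest mean. For a bound (at least N-fold), each array of the dimmer group was set to the lowest level of its detected probes, or to the probe's own level if that was higher, and their mean was compared with the brighter group's; bounds apply after background correction. The number of arrays limits the precision. No slide or scan batch is recorded.

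Of all probes, 23978 had 1 gene symbol and 1719 none; 23962 matched the RefSeq gene table of GRCm38.p6, used for symbols and chromosomes. Members and lists were chosen with earlier results of these data known. Named genes are the members and their close relatives, Atp2b4, and up to 4 genes per related list past the threshold with the smallest p. Up to 2 per marker list and all smooth muscle markers are also named. Sox9, Grem1, Scx, Krt15, Cdh1, Cd53, Nos3 and undetected markers were named after their values were seen. Centring subtracts, per array, the median deviation of a chromosome's kept probes from their means. Other alternatives were background corrections, normalizations, filters, variance models, array weights, a replicate block, the deposited log2 values, thresholds, averaged probes and each array left out.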

Additional observations from a re-analysis of the deposited data

Results flagged for a closer look

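Among 92 groups of 4 arrays, over the fitted probes of the members, the named related genes and the array measures, 4 held 1 array whose distance to its nearest neighbour was large for the range of its group (Dixon's 95% critical value). Chance gives about 1 in 20. None was a member. Kdm1a stood at 10.21 on rescued replicate 3 and at 10.03 or less on the others. Id2 stood at 8.53 on rescued replicate 3 and at 8.88 to 8.90 on the others. Bmper stood at 10.86 on rescued replicate 1 and at 11.16 to 11.20 on the others. Gnaq stood at 9.59 on rescued replicate 2 and at 9.86 to 9.88 on the others.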

How the results depend on the processing

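Of the 8 members past the threshold, 5 remained so when at least 1.5-fold was also required and 5 with each chromosome centred; the 3 lost to centring were Twist1, Twist2 and Prrx1. The count was from 5 to 8 over 23 alternatives and from 7 to 8 when 1 array was left out. The count of related genes fell from 57 to 33 at 1.5-fold, stayed within 1.5 times in the other 22 alternatives, and ran from 49 to 62 without 1 array. Of all probes, 3037 passed at an adjusted p under 0.01 (1559 higher, 1478 lower) and 1765 at 1.5-fold (887 higher, 878 lower); without 1 array the count ran from 4141 to 5056. Deviations of arrays with the same replicate number correlated at -0.0814 to -0.00301 and 0 of 4 rescued arrays correlated best with their own number, so the numbers were not taken to pair the samples. With the replicate block, 4206 probes (2135 higher, 2071 lower), 6 members and 53 related genes passed; Twist2 and Prrx1 were the members lost. Of 667 values of the 29 named related genes under the alternatives, 34 lost the call and 0 reversed. Folds of probes near background in at least 1 group, among them Tfap2a, Tfap2b and Hand2, depend on its correction.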

Other observations

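Arrays of the rescued group were the more variable. The SD was larger among rescued than among knockout arrays for 10 of 15 fitted member probes (66.7%), against 65.4% of all 12658 probes. The median SD over the 15 probes was 0.16 on rescued and 0.09 on knockout arrays, and 0.15 and 0.11 over all probes.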
